A study of Rattus norvegicus with 28 samples.

Results

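Whether the response of the contused rat spinal cord to a neural progenitor cell (NPC) transplant depended on when the cells were given was examined on 16 of the 28 one-colour Agilent arrays of the series, 4 arrays in each of 4 groups. The comparison was the acute effect, T1_NPC minus T1, less the subacute effect, T2_NPC minus T2, on the log2 scale. All 4 groups were adult female Sprague Dawley rats with a severe 250 kdyn contusion at thoracic level 8. T1 and T2 rats carried the injury without transplanted cells and were sacrificed 1 and 2 weeks after it, and the study's methods give them an injection of medium without cells. T1_NPC rats received NPCs into the cord right after the contusion and were sacrificed at 1 week, and T2_NPC rats received them 1 week after the contusion and were sacrificed at 2 weeks, so that both groups were read 1 week after transplantation. The cells had been grown as neurospheres from adult injured rat cords, so host and donor RNA come from the same species and cannot be separated on the array. Tacrolimus (FK-506), an immunosuppressant, was given at 1 mg/kg from the day before transplantation. The study's methods list it in the care of all animals but time it by the transplantation, so whether T1 and T2 rats received it is not clear. If they did not, drug and graft cannot be told apart in either effect. The 4 T0 arrays, called sham in the labels and uninjured in the study, served as a reference level. The tissue of T0, T1, T2 and T1_NPC was labelled as about 1.5 cm from T6 to T10 without the dura mater, whereas that of T2_NPC was labelled as 1.5 cm from T7 to T10 with no word on the dura, a difference that cannot be told apart from the group.

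Contusion destroys neurons and myelin at the epicentre and is followed by overlapping waves of neutrophils, monocyte-derived macrophages, reactive microglia and astrocytes, and then by a scar. A graft placed at the time of injury meets the first wave, and one placed later meets a lesion in which macrophages and glia prevail. NPCs can give rise to astrocytes, oligodendrocytes and neurons and are also known for the factors they release, and cyclic AMP (cAMP), which acts through protein kinase A and the EPAC exchange factors, promotes axon growth in this tissue. In whole tissue, fewer cells of a type and less RNA per cell cannot be told apart.

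The assignment of arrays to samples bears on every value below. In the deposited value table each sample's column had the rank order of exactly 1 scanner output, but for 16 of the 28 arrays that output was deposited under another sample. The conflict touched all 4 T1_NPC arrays, T1 replicates 2, 3 and 4, and T2 replicates 1 and 4. The value table was used here, and values with the outputs under their deposited samples are given beside many of the results. The difference between the effects then had 5 called features in place of 106, and the acute effect had 0 by limma at an adjusted p under 0.05, with 871 at an unadjusted p under 0.05. By the matched outputs T1_NPC filled a slide of its own and T2_NPC another, both in 1 scan session that held no injured control, so slide and transplanted group cannot be told apart, nor can session and the effect at either time taken alone. The difference between the effects could be fitted with session as a fixed block, and then had 298 calls that included all 106. The share of spots well above background was 74.5 to 76.4% in T1_NPC, 79.0 to 81.9% in T1, 75.1 to 81.3% in T2 and 78.0 to 80.9% in T2_NPC. By this share T1_NPC was the dimmest group except for 1 T2 array. By the median scanner intensity of an array, before normalization, both transplanted groups were dimmer than their controls. It was 105.4 to 127.0 in T1_NPC against 177.4 to 192.1 in T1, and 119.9 to 136.4 in T2_NPC against 145.7 to 182.0 in T2. The part of these differences in the results was not tested.

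Many features were called for the effect at each time, and far fewer for the difference between the times. The acute effect called 4225 of 35469 features (11.9%), of which 1933 were higher (5.45%) and 2292 lower (6.46%) in T1_NPC than in T1. The subacute effect called 3359 (9.47%), with 1638 higher (4.62%) and 1721 lower (4.85%) in T2_NPC than in T2. The median size of a called change was 0.79 for the acute and 0.66 for the subacute effect on the log2 scale. The difference between the effects called 106 features (0.299%), 61 with the acute effect above the subacute one (0.172%) and 45 with it below (0.127%). At an unadjusted p under 0.05 the difference had 3969 features (11.2%), 2137 above (6.02%) and 1832 below (5.17%). All calls are limma's at a Benjamini-Hochberg adjusted p under 0.05 over all features, a feature being the mean of the probes that carry 1 gene name.

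The effects shared 1272 called features, 30.1% of the acute and 37.9% of the subacute calls. Of these, 476 were higher and 779 lower after both transplantations, and 17 had opposite signs, of which 16 were also called for the difference. Among the 2953 features called only for the acute effect, 78% had a subacute estimate of the same sign, and the difference was called for 73. Among the 2087 called only for the subacute effect the same-sign share was 87.9%, and the difference was called for 12. A feature called at 1 time was therefore mostly not shown to differ from the other time. The median 95% half-width of the difference was 0.65 on the log2 scale, and for 74.4% of features it was under 1. These intervals are not adjusted for the number of features, and a call needed a stricter test. Differences no larger than a feature's half-width were therefore mostly not detectable with 4 arrays a group, and larger ones could also be missed. The balance of directions depended on the scaling. Of the 106 calls 57.5% had the acute effect above the subacute one, and when arrays were scaled by their 75th percentile and not quantile normalized, this share was 95.2% of 1889 calls, while the median difference of all features moved to 0.14.

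**Figure D1:**
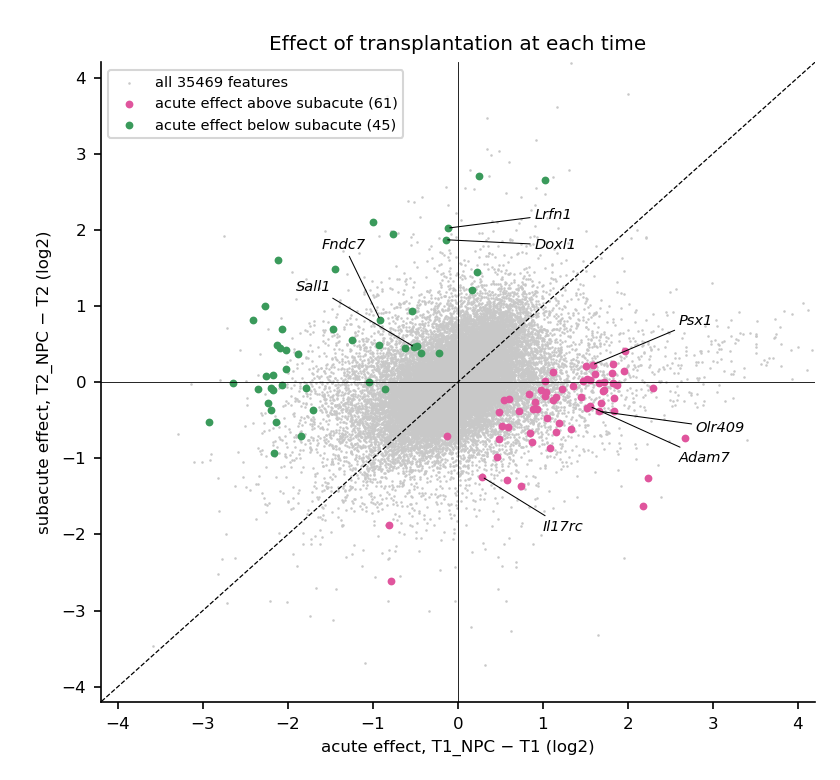
Each grey point is 1 of 35469 features, with the acute effect (T1_NPC minus T1, log2) on the x axis and the subacute effect (T2_NPC minus T2, log2) on the y axis, and the dashed line marks equal effects. The 61 features called with the acute effect above the subacute one lie below the line, the 45 called with it below lie above the line, and 6 features fall outside the axes at 4.2.

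In most called features T1_NPC had the highest or the lowest mean of the 4 groups, by the same values that selected the features. In 55 of the 61 features with the acute effect above the subacute one, T1_NPC had the highest mean of the 4 groups, and in 21 of these 61 T2_NPC had the lowest. In 41 of the 45 with it below, T1_NPC had the lowest mean, and in 23 of these 45 T2_NPC had the highest. The effects had opposite signs in 71 of the 106, with the acute estimate positive and the subacute one negative in 45, and the reverse in 26. The sizes ran from 0.58 to 3.80 on the log2 scale. A gene symbol was known for 36 of the 106, and the remainder included expressed sequence tags, predicted transcripts and probes of unknown description. A probe well above background on all arrays of at least 1 of the 4 groups was present for 65 of them. The other 41 were dim throughout: the 22 with the acute effect above had a median log2 level of 3.35 in T1_NPC against 1.58 to 1.87 in T1, T2 and T2_NPC, and the 19 with it below had 1.51 against 3.46 to 3.69. Dim features were called more often, 0.482% against 0.241% of those with such a probe, and are not named further, apart from A1bg, chosen after its values were seen, whose difference of 1.48 (SE 0.12, adjusted p = 4.48e-07) came with no group well above background on all its arrays.

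Among called genes with a symbol and a probe well above background, 2 had the smallest adjusted p for the difference. Both rose after subacute transplantation and did not pass the test after acute transplantation. Lrfn1, which encodes a synaptic adhesion molecule with leucine-rich repeats and a fibronectin type III domain, had log2 values of 4.59, 5.09, 4.54 and 5.14 in T1 and 4.53, 4.73, 4.90 and 4.73 in T1_NPC. In T2 it stood at 4.75, 5.33, 4.61 and 4.75, and in T2_NPC at 7.16, 6.90, 6.73 and 6.73. Every T2_NPC array was above all others, including T0 at 5.39 to 5.73, whereas T1 and T1_NPC overlapped. Its subacute effect was 2.02, a 4.07-fold rise (adjusted p = 7.14e-08), its acute effect was -0.12 (adjusted p = 0.71), and the difference was -2.14 (SE 0.24, 95% interval -2.63 to -1.65, adjusted p = 6.29e-05, all by limma). Doxl1, a diamine oxidase-like gene, showed the same pattern at a higher level, with 8.89, 8.69, 8.35 and 8.30 in T1 and 8.46, 8.43, 8.42 and 8.35 in T1_NPC. T2 gave 8.83, 9.33, 9.12 and 8.50, and T2_NPC gave 11.06, 10.88, 10.71 and 10.62. Again only the T2_NPC arrays stood apart from their controls. The subacute effect was 1.87, or 3.66-fold, the acute effect -0.14, and the difference -2.01 (SE 0.27, adjusted p = 0.000457). When each output was kept with the sample it was deposited under, the difference was -1.95 (adjusted p = 0.0917) for Lrfn1 and -1.83 (adjusted p = 0.213) for Doxl1.

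Sall1, a zinc-finger transcription factor that marks microglia in the brain and cord and is also present in progenitors, fell after acute and rose after subacute transplantation. Its values were 10.80, 10.39, 10.64 and 10.53 in T1 against 10.08, 9.87, 10.27 and 10.08 in T1_NPC. They were 10.31, 10.66, 10.70 and 10.39 in T2 against 10.94, 11.03, 10.86 and 11.08 in T2_NPC. Neither transplanted group overlapped its control, and T0, at 10.35 to 10.47, lay between the 2 transplanted groups. The acute effect was -0.51 (adjusted p = 0.00277), the subacute effect 0.46 (adjusted p = 0.00716) and the difference -0.97 (SE 0.15, 95% interval -1.28 to -0.67, adjusted p = 0.00184). With the outputs under their deposited samples these were 0.03, 0.44 and -0.41.

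The difference had the same form, lower acutely and higher subacutely, in 3 more genes called for both effects. Fndc7, a fibronectin type III domain gene, had 4.72, 4.95, 4.79 and 4.96 in T1 against 3.56, 3.86, 4.04 and 4.30 in T1_NPC, where 1 of 4 arrays was well above background. Its T2 values of 4.72, 5.51, 5.40 and 5.17 lay below the 6.08, 6.15, 5.81 and 6.05 of T2_NPC. No T1_NPC array reached T1 and no T2 array reached T2_NPC, and the difference was -1.74 (adjusted p = 0.00519). B4galt4, a galactosyltransferase, had 9.85, 9.93, 10.00 and 9.92 in T1 against 9.64, 9.07, 9.65 and 9.40 in T1_NPC, and 9.87, 9.80, 9.72 and 10.38 in T2 against 10.32, 10.58, 10.38 and 10.36 in T2_NPC. The acute groups did not overlap, 1 T2 array lay within the T2_NPC range, and the difference was -0.95 (adjusted p = 0.0259). Homer2, a scaffold protein of the postsynaptic density, had 8.96, 9.0, 9.20 and 9.11 in T1 against 8.70, 8.48, 8.82 and 8.50 in T1_NPC. It had 8.83, 8.97, 8.92 and 9.18 in T2 against 9.32, 9.19, 9.40 and 9.53 in T2_NPC, with no overlap at either time. Its difference was -0.82 (adjusted p = 0.0281). Hic1, a transcriptional repressor, had an acute effect of -0.22 that did not pass the test, a subacute effect of 0.39 that did, and a difference of -0.61 (adjusted p = 0.0446). Over the 28 other settings, the call was lost in 18 for Hic1, 10 for Homer2 and 8 for B4galt4, with adjusted p of 0.17, 0.10 and 0.097 when slide was a random block, and in 1, the deposited samples, for Lrfn1, Doxl1, Sall1 and Fndc7. Leaving out single arrays took the adjusted p up to 0.11 for Hic1, 0.070 for Homer2 and 0.070 for B4galt4. These 7 were all the called genes with a symbol and a probe well above background whose acute effect lay below the subacute one. Just short of the threshold were Stox2 at -1.07 (adjusted p = 0.0572), Acox2, a peroxisomal acyl-CoA oxidase, at -2.44 (adjusted p = 0.0646), the chemokine Cxcl17 at -1.78 (adjusted p = 0.0646), Pld4 at -1.66 (adjusted p = 0.0691) and the kinase gene Cdc2l1, now Cdk11b, at -0.87 (adjusted p = 0.0701).

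**Figure D2:**
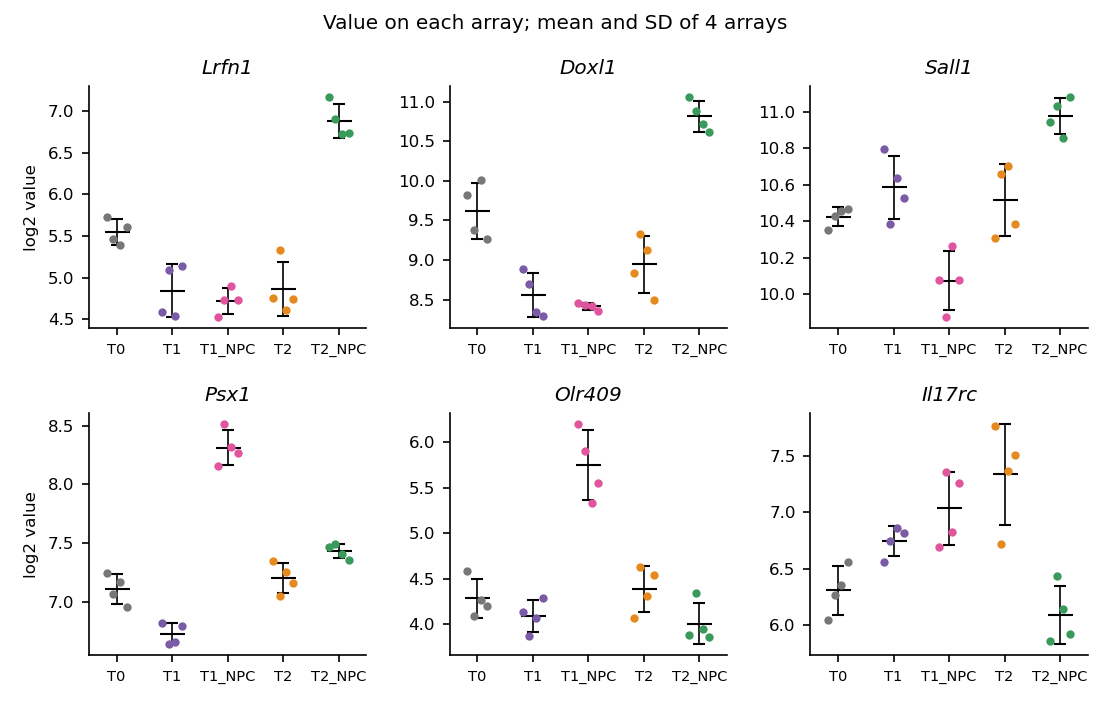
Log2 value (y axis) on each of 4 arrays (points) in T0, T1, T1_NPC, T2 and T2_NPC (x axis), with the mean and SD in black, for 6 called genes. Lrfn1 and Doxl1 stand apart in T2_NPC, Psx1 and Olr409 in T1_NPC, Il17rc is lower in T2_NPC than in T2, and Sall1 is lowest in T1_NPC and highest in T2_NPC.

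In the opposite direction, 16 called genes had a symbol and a probe well above background, and the 12 with the largest differences are given here. Psx1, a homeobox gene first known from placenta, had the narrowest interval. It had 6.82, 6.64, 6.66 and 6.79 in T1, 8.16, 8.51, 8.32 and 8.27 in T1_NPC, 7.35, 7.05, 7.25 and 7.16 in T2 and 7.47, 7.49, 7.41 and 7.36 in T2_NPC. Each transplanted group lay wholly above its control, and T1_NPC lay above every array of T0, which ran from 6.96 to 7.25. The acute effect was 1.59, or 3.00-fold, the subacute effect 0.23 (adjusted p = 0.30), and the difference 1.36 (SE 0.19, 95% interval 0.97 to 1.75, adjusted p = 0.000698). Adam7, a member of the ADAM family of membrane proteins, had 5.35, 5.48, 5.14 and 5.05 in T1 against 6.40, 7.46, 6.74 and 6.65 in T1_NPC. In T2 it had 5.55, 5.54, 6.17 and 5.70 and in T2_NPC 5.58, 4.96, 5.77 and 5.38. T1_NPC stood apart and T2 and T2_NPC overlapped, with an acute effect of 1.56 (2.94-fold), a subacute effect of -0.32 and a difference of 1.87 (SE 0.30, adjusted p = 0.00358).

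Immune genes were among these. Il17rc, a subunit of the interleukin 17 receptor, differed through the subacute effect: T1 had 6.56, 6.75, 6.86 and 6.81, T1_NPC had 6.70, 7.36, 6.83 and 7.26, T2 had 7.76, 6.72, 7.36 and 7.51 and T2_NPC had 5.86, 6.44, 6.14 and 5.93. All T2_NPC arrays were below T2 and the acute groups overlapped. The subacute effect was -1.25, a 2.37-fold fall, and the difference was 1.54 (SE 0.28, adjusted p = 0.0121). Igh-6, the IgM heavy chain made by B cells and plasma cells, had 3.71, 3.17, 4.24 and 3.74 in T1 against 5.79, 5.64, 5.07 and 5.73 in T1_NPC. It had 5.45, 4.76, 4.74 and 4.54 in T2 against 4.85, 4.05, 5.07 and 4.02 in T2_NPC. T1 was well above background on 1 of 4 arrays, T1_NPC stood above T1, the T2 groups overlapped, and the difference was 2.22 (SE 0.46, adjusted p = 0.0328). The list of other B and plasma cell genes, of which 1 of 7 measured had a probe well above background, had a median difference of 0.33 and no called member. Il1f6, now Il36a, a cytokine of the interleukin 1 family, rose by 1.55 acutely and stood at 0.03 subacutely, with a difference of 1.52 (adjusted p = 0.0411). It was well above background on 2 arrays of T1, 4 of T1_NPC, 2 of T2 and 3 of T2_NPC. Hspb7, a small heat shock protein of muscle, had an acute effect of 0.86, a subacute effect of -0.66 and a difference of 1.52 (adjusted p = 0.0332) as the mean of 2 probes, neither of which was called when probes were tested singly.

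Olfactory receptor genes, a very large family of odorant receptors named Olr on this array, made up 9 of the 61 features with the acute effect above the subacute one. Their share called in that direction was 0.81% of 1111 features against 0.172% of all features, and 1 was called in the other direction. Olr409 (Or1j19) had 4.14, 3.87, 4.07 and 4.28 in T1, 6.20, 5.90, 5.33 and 5.55 in T1_NPC, 4.07, 4.63, 4.31 and 4.54 in T2 and 3.88, 4.34, 3.95 and 3.85 in T2_NPC. T1_NPC stood above all others. No T2_NPC array and 3 of 4 T2 arrays were well above background, and the 2 groups overlapped. The subacute estimate, -0.38, did not pass the test (adjusted p = 0.31 by limma), so no subacute change was shown. As a bound on that estimate, the T2 mean was at least 1.26-fold higher. The bound sets T2_NPC at the lowest signal well above background or at its own signal, whichever was higher. The measured values, those below background included, gave a difference of 2.04 (SE 0.31, adjusted p = 0.00208). The other 5 among these 12 had differences of 1.83 for Olr229, 1.73 for Olr259, 1.52 for Olr1381, 1.40 for Olr230 and 1.36 for Olr837, each from an acute rise of 1.05 to 1.73. Only 240 of the 1111 had a probe well above background in any of the 4 groups, and the family's median log2 level was 2.13 in T1, 2.32 in T1_NPC, 2.35 in T2 and 2.16 in T2_NPC. The family's median difference was 0.20 as reported and 0.37, with 7 called above and 0 below by limma, over those 240. Over all 1111 it was 1.01 with 261 called above and 2 below under scaling to the 75th percentile, 0.03 with 7 above and 0 below after normexp background correction, and -0.05 with 0 called by limma under the deposited samples. The related vomeronasal receptors, 56 features, had 1 called above (1.79%, where 0.172% of all features were). That 1, Vom2r27, had no group well above background on all its arrays.

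Under the deposited samples 9 of the 12 named genes with the acute effect above turned sign, among them Psx1 (-0.75), Adam7 (-0.21) and Olr409 (-0.39), whereas the 7 with it below kept theirs. Il17rc, at 1.05, kept its sign as well. Over the 28 other settings the call was lost in 18 for Il1f6 and Olr230, 17 for Hspb7, 15 for Olr259, 11 for Igh-6, 10 for Olr229, 8 for Olr1381 and 2 for Il17rc, and in 1, the deposited samples, for Olr409, Adam7, Olr837 and Psx1. With slide as a random block the adjusted p was 0.055 for Il1f6, 0.12 for Olr230, 0.14 for Hspb7, 0.16 for Olr259 and 0.11 for Igh-6.

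**Figure D3:**
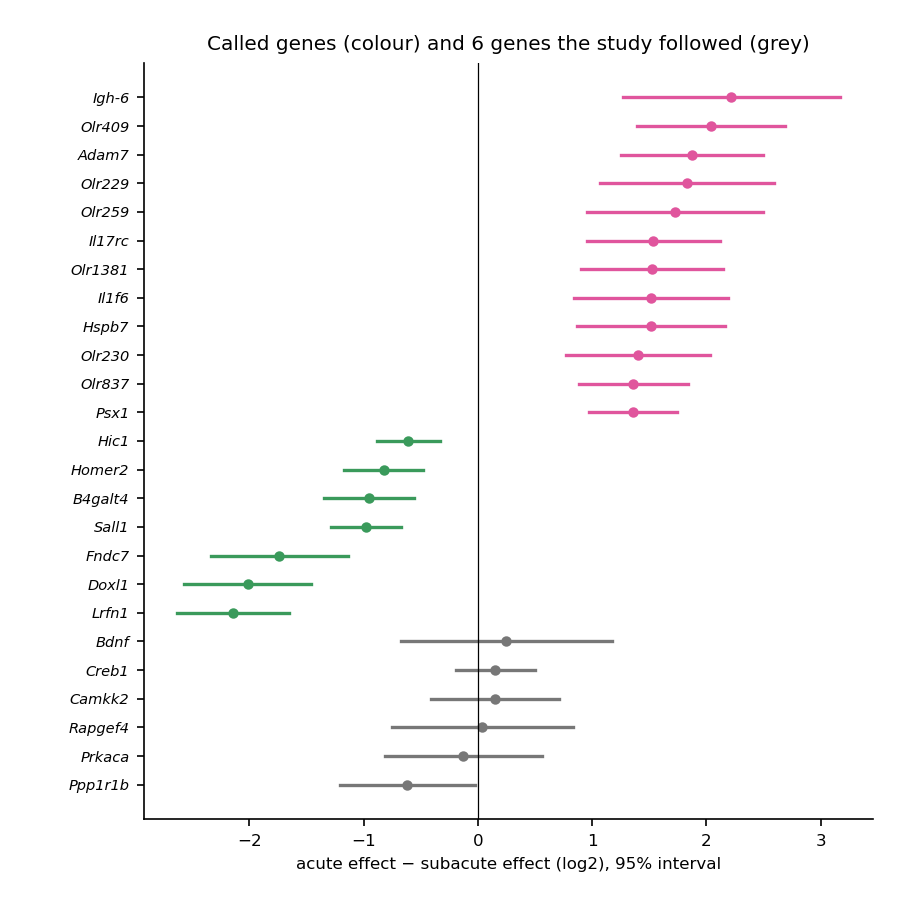
Difference between the effects on the log2 scale (x axis), with its 95% interval, for the 19 called genes described here (coloured by sign) and for the 6 genes the study followed (grey). The coloured intervals lie clear of 0 and the grey ones reach 0 or end beside it.

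The cAMP signalling genes, the pathway of the study, had no called difference among 30 measured, where 0.299% of all features were called. Rapgef4, which encodes EPAC2, had means of 8.12 in T0, 6.08 in T1, 5.91 in T1_NPC, 5.74 in T2 and 5.54 in T2_NPC. Neither effect passed the test, at -0.16 and -0.20, and the difference was 0.04 (95% interval -0.75 to 0.83). Bdnf, the neurotrophin induced through CREB, had effects of 0.58 and 0.33 and a difference of 0.25 (95% interval -0.67 to 1.17). The difference was -0.13 for Prkaca, the catalytic subunit of protein kinase A (95% interval -0.81 to 0.56), 0.15 for the kinase Camkk2 (95% interval -0.41 to 0.71), and 0.15 for the transcription factor Creb1 (95% interval -0.19 to 0.50). Ppp1r1b, the phosphatase inhibitor DARPP-32, was at -0.62 (95% interval -1.21 to -0.03, adjusted p = 0.42). Intervals this wide do not show equal responses. With the outputs under their deposited samples the differences were 0.58 for Rapgef4, -0.61 for Bdnf and 0.10 for Ppp1r1b. Those of Prkaca, Camkk2 and Creb1 were 0.03, 0.04 and 0.09. The acute and subacute effects were then -0.45 and -1.04 for Rapgef4, and -0.63 and -0.02 for Bdnf.

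Across the whole cAMP list the median difference was -0.05, with 13 positive and 17 negative, and 1 positive and 3 negative at an unadjusted p under 0.05 (6.02% and 5.17% of all features). The acute effect called 3 members higher and 1 lower (5.45% and 6.46% of all features), and the subacute effect 5 higher and 1 lower (4.62% and 4.85% of all features). Map2k1, the kinase MEK1, rose after both, by 0.59 and 0.68. Rapgef3, which encodes EPAC1, had 11.14, 10.64, 11.15 and 11.46 in T1, 11.16, 11.37, 11.70 and 11.32 in T1_NPC, 10.86, 11.21, 11.06 and 11.31 in T2 and 12.30, 12.49, 12.31 and 12.46 in T2_NPC. The T2_NPC arrays stood above all others, and the rise of 1.28 was called (adjusted p = 0.000412) where the acute effect of 0.29 was not. The difference itself, -0.99, had an adjusted p of 0.16 by limma, so the times were not shown to differ. Adcy6, an adenylyl cyclase, rose subacutely by 0.52 and Adcy3, another, rose acutely by 0.67, while Adcy8 fell acutely by 0.62 and the GTPase gene Rap1b fell subacutely by 0.71.

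Among the immediate early genes, which are switched on within minutes of a stimulus, Fos and Junb rose after both transplantations. Fos had 11.02, 11.01, 11.24 and 10.93 in T1 against 11.97, 12.67, 11.75 and 12.08 in T1_NPC, and 11.29, 11.20, 11.19 and 11.78 in T2 against 12.57, 12.57, 12.25 and 12.34 in T2_NPC. Neither pair overlapped, both effects were 1.07, and the 95% interval of the difference was -0.55 to 0.54. Junb rose by 1.53 and 0.99, and Dusp1, a phosphatase that ends MAP kinase signalling, rose by 1.51 acutely with a subacute estimate of 1.11 that did not pass. The list of 20 had 7 members called higher after acute transplantation (Fos, Junb, Dusp1, Btg2, Nr4a1, Egr3 and Cyr61) and 3 after subacute transplantation (Fos, Junb and Fosb), where 5.45% and 4.62% of all features were called higher, and none was called lower. Its median difference was 0.07 with no member called for it, where 0.299% of all features were. Under the deposited samples the difference for Fos was -1.44.

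Besides Fos, Junb and Map2k1, 7 list genes were called higher after both transplantations, namely the tight junction gene Cldn5, the sterol demethylase Cyp51, the adhesion gene Mcam, the chaperone Dnajb1, the glycolytic Ldha, the calcineurin regulator Rcan1 and the clock gene Clock. Their effects lay between 0.32 and 0.85. Called lower after both were the survivin gene Birc5 (-0.71 and -1.0), the calcineurin subunit Ppp3ca (-0.49 and -0.58), part of the phosphatase that tacrolimus inhibits, and the troponin gene Tnnt1 (-1.49 and -1.38). None of these 13 was called for the difference. Of the 1255 features called in the same direction at both times 5 were, where 0.299% of all features were called. Sall1 was the only one of the 536 list genes measured that was called for the difference (0.299% of all features were). Over all 35469 features, 476 were called higher and 779 lower after both transplantations.

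Of the 32 gene lists for cell types and pathways, the neutrophil and interferon response lists had the median differences farthest from 0. The 30 interferon response genes had a median difference of -0.74, with 27 negative and 3 positive, against -0.003 over all features with 17891 negative and 17578 positive. In the list 5 were negative at an unadjusted p under 0.05, where 5.17% of all features were. None was called for the difference, where 0.299% of all features were. The median acute effect was -0.14 and the median subacute effect 0.67. The peptide transporter gene Tap1 rose subacutely by 1.10, and Bst2, an antiviral membrane protein, fell acutely by 1.59. Relative to T0, the list's median level ran from 1.21 to 2.36 over the T1 arrays, 0.47 to 2.30 in T1_NPC, 2.22 to 2.58 in T2 and 2.54 to 3.18 in T2_NPC. T1 and T1_NPC overlapped widely, and T2 and T2_NPC overlapped at the edge. The antiviral genes Mx1 (-1.75), Oasl (-1.55), Rsad2 (-1.52) and Ifit3 (-1.28) had the most negative estimates along with G1p2, listed now as Isg15 (-1.35), none below an adjusted p of 0.42 by limma. The list median was -0.41 without T1_NPC replicate 2 and -0.62 under the deposited samples.

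Complement genes, which tag debris and synapses for removal, had a median difference of -0.48, with 13 negative and 2 positive of 15. At an unadjusted p under 0.05 these were 4 and 2, where 5.17% and 6.02% of all features were, and none was called for the difference. After subacute transplantation C1qa (0.61) and C1qc (0.53), chains of the initiating C1q molecule, rose and Cfd (-0.57), the alternative pathway protease, fell, and no member was called acutely. Over all features 4.62% were called higher and 4.85% lower subacutely, and 5.45% and 6.46% acutely. Cfb was at -1.03 (adjusted p = 0.15) and C3, the central component, at -1.78 (adjusted p = 0.30). The list's level over T0 was 3.20 to 3.46 in T2_NPC against 2.49 to 2.79 in T2. The median was -0.07 without T1_NPC replicate 2, where C3 was at -1.09 and Cfb at -0.87.

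The microglia list, Sall1 included, had a median difference of -0.44 with 9 of 11 negative. P2ry12, a purinergic receptor of resting microglia, fell acutely by 1.06 (adjusted p = 0.0271) and stood at -0.12 subacutely. T1_NPC had 13.41, 11.25, 13.31 and 13.68, of which replicate 2 stood far below the rest, and replicate 2 was likewise low for the fractalkine receptor Cx3cr1, at 8.12 against 11.22, 10.87 and 11.07. Without it the difference of P2ry12 moved from -0.94 to -0.38, that of Cx3cr1 from -1.36 to -0.63, and the list median from -0.44 to -0.24, whereas Sall1 stayed at -0.91 (adjusted p = 0.00374). The median was -0.11 under the deposited samples.

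Neutrophil genes had a median difference of 0.98, an acute median of 0.22 and a subacute median of -0.70. Of 13 measured, 10 were positive and 3 negative, and at an unadjusted p under 0.05 these were 4 and 1, where 6.02% and 5.17% of all features were. S100a9, an alarmin of myeloid cells, was at 1.88 (adjusted p = 0.31) and Csf3r, the receptor for granulocyte growth factor, at -1.19 (adjusted p = 0.46). The neutrophil defensin Np4 fell subacutely by 0.40 (adjusted p = 0.0263) and was just short of a call for the difference at 0.68 (adjusted p = 0.0619). The granule genes Mpo, Elane and Ltf and the receptor Cxcr2 had no group with all arrays well above background. The list's level over T0 was 0.84 to 1.95 in T1, 1.40 to 2.06 in T1_NPC, 0.28 to 2.77 in T2 and -0.01 to 0.72 in T2_NPC, so that both pairs overlapped. The median was 0.63 without T1_NPC replicate 2 and 0.14 under the deposited samples. Macrophage genes had a median of 0.16 with 16 of 22 positive, led by the scavenger receptor Cd36 at 2.11 (adjusted p = 0.12) and the mannose receptor Mrc1 at 1.16 (adjusted p = 0.22). Mrc1 and the lipid droplet gene Plin2 rose acutely, by 0.86 and 0.54.

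**Figure D4:**
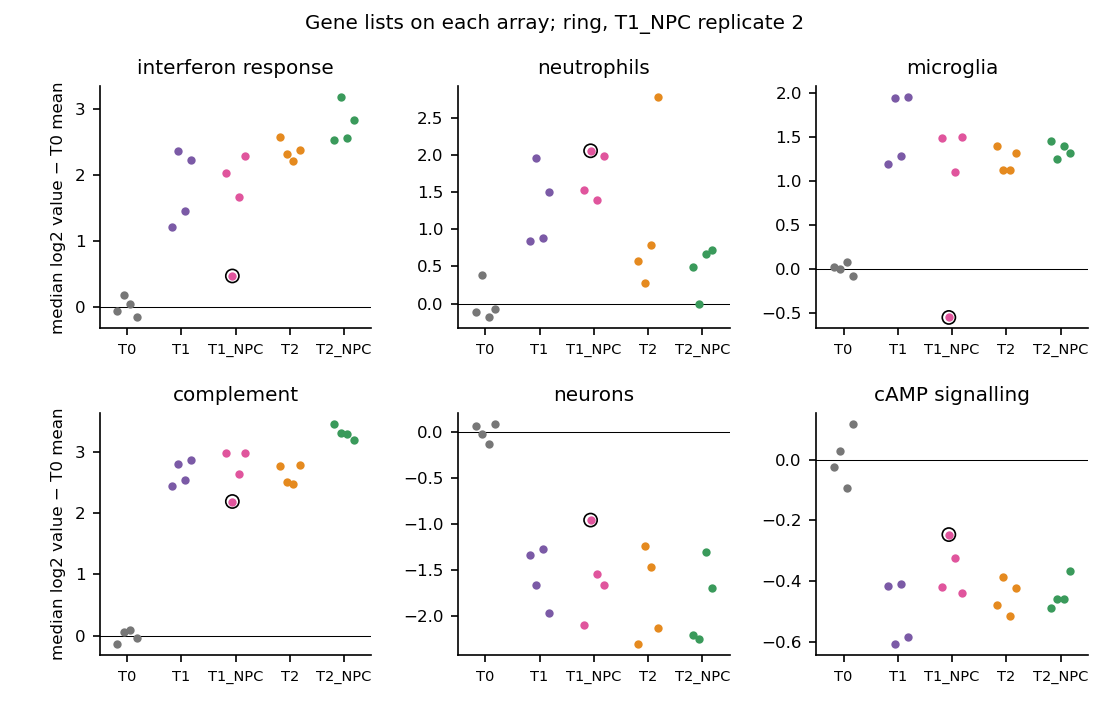
Median log2 value of a gene list minus its T0 mean (y axis) on each of 4 arrays (points) in T0, T1, T1_NPC, T2 and T2_NPC (x axis) for 6 lists, with a ring around T1_NPC replicate 2. Interferon response and complement genes have their highest means in T2_NPC, neutrophil genes have their lowest mean among the injured groups there, and the ringed array is the lowest T1_NPC array for microglia.

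Among the neural lists, neuronal genes had a median difference of 0.24, with 16 of 20 positive and none called in either effect. Over all features the acute effect called 5.45% higher and 6.46% lower, and the subacute effect 4.62% and 4.85%. Oligodendrocyte and myelin genes had a median difference of -0.26. Of 19 measured, 2 were called higher subacutely, Mbp (1.43, adjusted p = 0.00182 by limma) and Mobp (0.70). Their acute effects were 0.55 and 0.34, and their differences of -0.88 and -0.36 did not pass. Oligodendrocyte precursors had -0.20, where the sialidase Neu4 stood at -0.99 (adjusted p = 0.12). Astrocyte genes had -0.11 with 14 of 18 negative, and Fgfr3 alone rose, subacutely by 0.94. Neural progenitor genes, which graft and host could both supply, had -0.20. Sox2 rose subacutely by 0.53, with 0.29 acutely, and Foxj1, a gene of ciliated ependymal cells, fell acutely by 0.68. Receptors for glutamate, GABA and glycine had a median of -0.10. Grin2d, an NMDA receptor subunit, fell acutely by 2.56 (adjusted p = 0.00994) and had a difference of -2.98 (adjusted p = 0.16), which was 0.90 under the deposited samples, while Grm5 and Grin2b rose and Gabrb2 fell subacutely.

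Among the other lists the haemoglobin gene Hbb rose subacutely by 2.11 (adjusted p = 0.00209), with a difference of -1.64 (adjusted p = 0.26) and a red blood cell list median of -0.55. The heat shock list had -0.13, with Hspa4 down by 1.18 acutely and a difference of -1.10 (adjusted p = 0.14). The T and NK cell list had -0.10, and Ctla4, an inhibitory receptor of T cells, rose acutely by 0.79. The median difference was -0.13 for MHC class II, 0.14 for inflammatory cytokines and chemokines, -0.03 for cell proliferation, 0.02 for fibrotic matrix, 0.03 for matrix proteases, -0.03 for endothelium and -0.02 for Schwann cells and peripheral myelin. It was -0.10 for cholesterol synthesis, 0.14 for growth factors, -0.03 for hypoxia and glycolysis, 0.12 for glucocorticoid-responsive genes, 0.06 for calcineurin and NFAT, 0.02 for the circadian clock and -0.18 for skeletal muscle. The Y chromosome list had 3 measured members, 1 of them with a probe well above background, and a median of 0.45. That 1 member was listed as Uty but matched through a synonym a feature named Utx, the name of its X-linked counterpart, so the median may not be that of Y-linked genes alone. None of the lists from red blood cells onward had a member called for the difference, where 0.299% of all features were called.

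**Figure D5:**
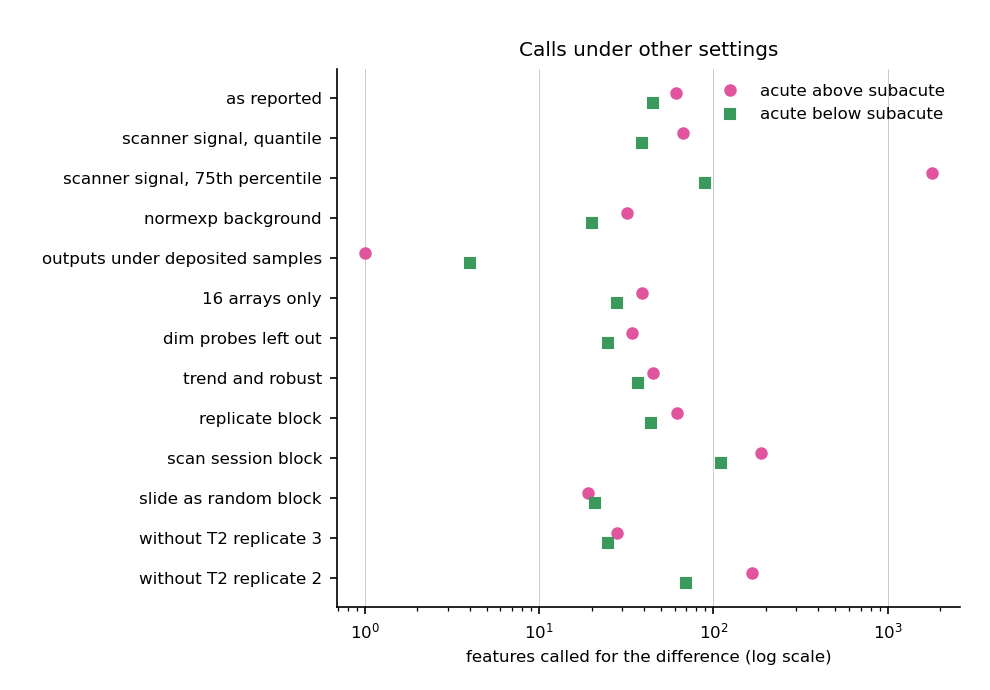
Number of features called for the difference (x axis, log scale) under each processing setting (y axis), with circles for the acute effect above the subacute one and squares for the acute effect below. As reported there were 61 and 45, the scaling to the 75th percentile gave 1799 and 90, and the outputs under their deposited samples gave 1 and 4.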

How the data were processed

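Cy3-labelled cRNA from whole cord tissue was hybridized to Whole Rat Genome arrays, with 4 animals per group by the study's methods, so p-values measure the spread between these arrays. The authors extracted the scanner intensity values with Agilent Feature Extraction 10.7.1.1, which subtracts background, and quantile normalized them, and the deposited value table holds log2 values over all 28 arrays. The deposited intensity files were used for probe names, for the flag of a signal well above background, and for alternatives. The genome build of the authors' own annotation is not given in the sources used here, and no coordinates are printed.

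Of 45018 spots, 1639 were controls. The remaining 43379 were averaged per probe (41012) and per gene name (35469 features, 14800 with a gene symbol). One limma model (version 3.58.1, R 4.3.3) with a mean for each of the 7 groups was fitted to 28 arrays, and each effect and their difference were contrasts of it, tested two-sided. Features at a Benjamini-Hochberg adjusted p under 0.05 were called, and the number of arrays limits the precision. Changes are relative to the median of all features. The fit was tested on simulated data. The named genes were the 12 largest called differences in each direction with a symbol and a probe well above background on all 4 arrays of at least 1 of the 4 groups, filled by smallest p where fewer were called, up to 3 called genes from each gene list, and the 6 genes of the study. The 32 gene lists held 555 genes, of which 536 were found, 5 of them through a probe description. The comparison, the lists and the naming rule were chosen with earlier results of these data known. The 15 alternatives cover the signal, scaling, background, sample assignment, arrays, probe filters, variance prior, replicate number, scan session, slide, a minimum change and each left-out array. The normexp alternative used the median spot signal, since 20 of the scanner outputs held no mean signal.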

Additional observations from a re-analysis of the deposited data

Results flagged for a closer look

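The difference between the effects was called for 106 features at an adjusted p under 0.05 by limma, so some of these calls may be false. Of the 106, 40 were called in the same direction with slide as a random block and 4 with the outputs under their deposited samples. With the acute effect above the subacute one, the named genes and their differences were Igh-6 (2.22), Olr409 (2.04), Adam7 (1.87), Olr229 (1.83), Olr259 (1.73), Il17rc (1.54), Olr1381 (1.52), Il1f6 (1.52), Hspb7 (1.52), Olr230 (1.40), Olr837 (1.36) and Psx1 (1.36) on the log2 scale. With it below, they were Lrfn1 (-2.14), Doxl1 (-2.01), Fndc7 (-1.74), Sall1 (-0.97), B4galt4 (-0.95), Homer2 (-0.82) and Hic1 (-0.61).

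In 13 of 348 sets of 4 arrays, 1 array lay farther from the rest than Dixon's 95% criterion allows, where chance gives about 1 in 20. T1_NPC replicate 2 was low for Cx3cr1, at 8.12 against 10.87 to 11.22, and for P2ry12, at 11.25 against 13.31 to 13.68. Other single genes were P2ry12 in T2 replicate 1 (13.59 against 13.93 to 13.97), P2ry13 in T1 replicate 3 (7.88 against 8.28 to 8.31), Fos in T2 replicate 4 (11.78 against 11.19 to 11.29) and Hbb in T2 replicate 1 (9.69 against 11.08 to 11.32). The remaining 7 were list medians relative to T0. The B and plasma cell list stood out in T1_NPC replicate 4 (0.52 against 0.02 to 0.10) and T2_NPC replicate 1 (0.79 against -0.10 to -0.07). MHC class II stood out in T2_NPC replicate 2 (1.87 against 1.36 to 1.41) and inflammatory cytokines and chemokines in T1 replicate 4 (1.81 against 2.09 to 2.11). Growth factors did so in T1 replicate 2 (0.72 against 0.30 to 0.37), hypoxia and glycolysis in T2_NPC replicate 3 (-0.19 against -0.15 to -0.14) and skeletal muscle in T1_NPC replicate 1 (0.14 against -0.34 to -0.30).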

How the results depend on the processing

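The count of 106 features for the difference (61 above, 45 below) became 1889 (1799 and 90) with scaling to the 75th percentile, 52 (32 and 20) with normexp, 67 (39 and 28) with the 16 arrays alone, 59 (34 and 25) without dim probes and 40 (19 and 21) with slide as a random block. With scan session as a fixed block it was 298 (188 and 110), all 106 included. With the outputs under their deposited samples it was 5 (1 and 4). The acute count of 4225 became 7299 with the 75th percentile, 2670 with 16 arrays, 2236 with the slide block, 1568 with a minimum log2 change of 1 and 0 under the deposited samples. The subacute count of 3359 became 1623 with the slide block, 630 with the minimum change, 46 under the deposited samples and 7399 with only undisputed arrays, where neither the acute effect nor the difference could be fitted. Leaving out 1 array at a time gave 53 to 236 for the difference (28 to 166 above, 25 to 80 below), 2890 to 4713 for the acute and 1899 to 4467 for the subacute effect. The difference moved by over 1.5 times without T1 replicate 2 (59), T1 replicate 4 (66), T2 replicate 1 (60), T2 replicate 2 (236), T2 replicate 3 (53), T1_NPC replicate 4 (166), T2_NPC replicate 2 (69) and T2_NPC replicate 4 (65). Under the deposited samples 9 named genes turned sign: Igh-6 (-0.60), Olr409 (-0.39), Adam7 (-0.21), Olr229 (-0.62), Olr1381 (-0.011), Il1f6 (-0.67), Olr230 (-0.68), Olr837 (-0.35) and Psx1 (-0.75). The cause of these changes was not tested. The call for the difference held in every setting but the deposited samples for Olr409, Adam7, Olr837, Psx1, Lrfn1, Doxl1, Fndc7 and Sall1. Of 32 list medians, 10 kept their sign in all 28 alternatives, namely neurons, oligodendrocytes, astrocytes, microglia, neutrophils, interferon response, complement, neural progenitors, heat shock and red blood cells.

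Deviations of arrays with the same replicate number had correlations of -0.29 to 0.30, with 4 of 16 pairs over 0.1. They do not show that the numbers pair the samples and, with 4 arrays a group, cannot exclude it. With the replicate number as a block, the difference had 106 calls (62 above, 44 below, 87 shared with the fit without it), the acute effect 3834 and the subacute effect 2940.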
